A study of Mus musculus and Homo sapiens with 40 samples.

Results

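Broad H3K27ac domains are long, unbroken stretches of chromatin carrying acetylated lysine 27 of histone H3. In these data they were chosen by width alone: every single H3K27ac peak of 5000 bp or more, in any of 4 peak lists, was taken, and such peaks that overlapped by at least 1 bp were merged. This gave 3274 domains out of 183152 merged H3K27ac regions on mouse chromosomes 1 to 19 and X, or 1.77% of the regions and 15.3% of the bases they cover. Because width chose the domains, their widths are a description, whereas genes, CEBPA sites, H3K4me1 and sequence played no part in the choice.

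H3K27ac is laid down by the acetyltransferases p300 and CBP and marks active promoters and enhancers. Where many enhancers lie close together, or where a promoter is flanked by active elements, the mark can run on for many kilobases. In blood progenitors such stretches are known from genes for lineage transcription factors, growth factor receptors and immediate early regulators. CEBPA is a leucine zipper transcription factor of the myeloid lineage that recruits coactivators to such elements.

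The cells were HPC-7, a mouse hematopoietic progenitor line transduced with a CEBPA-ERT2 fusion, whose receptor portion holds the protein in the cytoplasm until hydroxytamoxifen is given. One line carried the full-length isoform p42 and the other the shorter isoform p30, which lacks the N-terminal transactivation domains and is the form made from mutant *CEBPA* in leukemia. The H3K27ac lists came from 12 samples, 3 per group, in p42 and p30 cells that were untreated or exposed for 2 h to lipopolysaccharide (LPS), 100 ng/mL. Untreated cells of each line also gave 2 samples for the enhancer mark H3K4me1, 1 for CEBPA itself (anti-CEBPA) and 1 for the receptor portion of the fusion (anti-ER). Each line was 1 transduced and sorted population, so cell line and isoform are the same variable. According to the study's methods the cells received hydroxytamoxifen, which the sample labels do not name.

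The authors called each histone list on the replicates together and each CEBPA list on 1 library. Differences between lists therefore lack a measure of replicate spread, no p-value is given, and intervals are Wilson 95% intervals that cover counting error over regions only. The H3K27ac lists held 107114 to 142385 peaks, and the list of LPS-treated p42 cells was the shortest. The depth behind the lists is unknown from the files, and both the number and the width of called peaks can move with it.

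To show what lies inside these domains, 200 bp of reference sequence (GRCm39, plus strand) are given around the best-ranked anti-CEBPA summit of p42 cells in 3 of them. Capitals mark matches to the CEBP consensus, TTGCNNAA on either strand. The first lies between genes near the chemokine receptor gene *Ccr1*, at chr9:123736788-123736987. The others lie inside *Septin9*, in an intron at chr11:117224989-117225188, and inside *Zfp710*, at chr7:79724669-79724868, where an exon of the noncoding RNA *Gm21057* overlaps.
Ccr1: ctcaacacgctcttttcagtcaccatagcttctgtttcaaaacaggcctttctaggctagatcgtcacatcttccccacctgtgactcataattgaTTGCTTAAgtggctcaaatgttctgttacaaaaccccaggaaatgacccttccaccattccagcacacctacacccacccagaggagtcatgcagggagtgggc
Septin9: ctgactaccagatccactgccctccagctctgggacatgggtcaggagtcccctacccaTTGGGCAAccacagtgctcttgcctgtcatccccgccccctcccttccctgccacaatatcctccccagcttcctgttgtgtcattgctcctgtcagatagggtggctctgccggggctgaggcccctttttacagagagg
Zfp710: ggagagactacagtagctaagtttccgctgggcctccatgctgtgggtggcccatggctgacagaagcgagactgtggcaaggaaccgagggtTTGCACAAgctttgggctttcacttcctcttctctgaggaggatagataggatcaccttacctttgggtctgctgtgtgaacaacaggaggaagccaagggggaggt

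Fold enrichment at these summits in the anti-CEBPA list was 13.4 at *Ccr1*, 16.2 at *Septin9* and 12.1 at *Zfp710* in p42 cells. In p30 cells it was 5.44, 14.3 and 14.1 in the same order, so that of the 3 only *Ccr1* had a p30 value below 0.5 of the p42 value. Values from different lists are not on a common scale. Of the 10 best summits picked by this rule 5 held a match. Those of the *Mapkapk2*, *Tbc1d2b*, *Fli1*, *Ptk2b* and *Plekho2* domains held no such match within 200 bp.

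The domains measured 5000 to 44882 bp, with a median of 6654 bp and the middle 50% between 5668 and 8649 bp. Of them, 542 reached 10 kb and 45 reached 20 kb. The median of all merged H3K27ac regions was 434 bp. Every domain had some H3K27ac peak in all 4 lists, so that membership turned on the width of single peaks, not on the mark's presence. That width depended both on how far the mark ran and on how a list cut it into peaks. In domains broad in p42 lists only, the untreated p30 list had a median widest peak of 3628 bp but a median of 4935 bp covered. In those broad in p30 lists only, the untreated p42 list had medians of 3548 and 4828 bp. The lists of untreated p42, untreated p30 and LPS-treated p30 cells made 2121, 2129 and 2150 of the domains broad. The list of LPS-treated p42 cells made 1532 broad.

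Width was shared unevenly. A peak of at least 5 kb was present in all 4 lists in 985 domains (30.1%) and in only 1 list in 1068 (32.6%). The domains broad in all 4 lists were also the longest, with a median of 8730 bp for their widest peak, against 5604 bp in those broad in 1 list. Lists of p42 cells alone made 581 domains broad, and lists of p30 cells alone made 928.

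**Figure D1:**
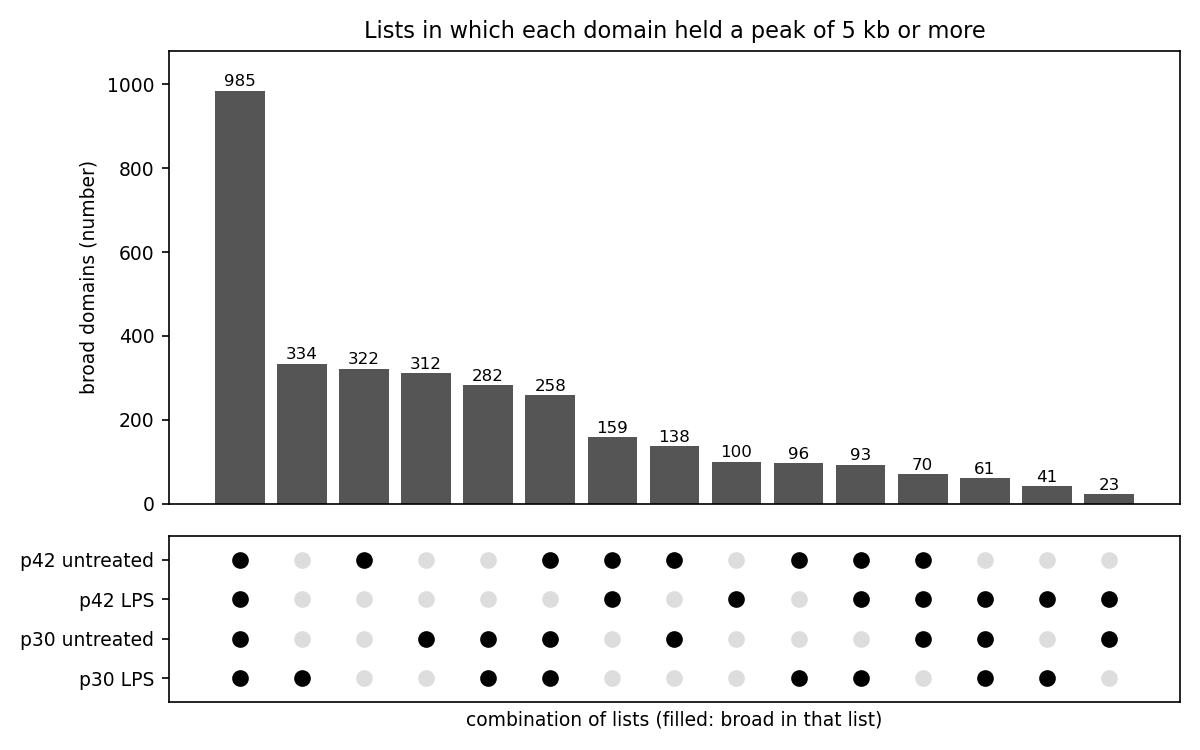
Number of broad domains by the combination of lists in which they held a peak of at least 5 kb; filled circles below each bar name the lists. The tallest bar is the 985 domains broad in all 4 lists, followed by 334 broad in LPS-treated p30 cells alone.

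The threshold fell in a continuum. The 157 domains with a widest peak of 5000 to 5099 bp had a median highest fold enrichment of 31.1, and the 164 regions that just missed it at 4900 to 4999 bp had 32.4. Taking the 1614 widest peaks of each list instead of a fixed width gave 2617 domains, with 624 from lists of p42 cells alone and 622 from lists of p30 cells alone. In this way the excess of domains broad in p30 cells alone was no longer seen.

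The widest single peak lay at *Nek6*. At this gene, which encodes a mitotic kinase (chr2:38401235-38445238), it measured 33940 bp in untreated p42 cells, 18760 bp with LPS, 43979 bp in untreated p30 cells and 40862 bp with LPS. The list of LPS-treated p42 cells stood apart there because it broke the domain into 15 peaks, whereas the bases covered were 38779 bp against 42505 bp untreated. The next widest lay 8571 bp from *Plekho2*, with no gene start inside (chr9:65438532-65478788). Its widest peak in p42 cells was 20135 bp untreated, or 9813 bp after LPS, and in p30 cells 36215 bp untreated, or 40257 bp after LPS. Over *Ptk2b*, which encodes a focal adhesion kinase of blood cells, they were 12188, 10332, 31736 and 31793 bp, in the order untreated p42, LPS p42, untreated p30 and LPS p30. Both p30 lists thus had wider single peaks than both p42 lists there. The bases covered over *Ptk2b* were 31160, 29016, 32368 and 32441 bp in the same order, by 6, 6, 2 and 2 peaks. Near *Plekho2* they were 38027, 36005, 39908 and 40257 bp. Cutting into peaks thus made most of the width difference at both. Over *Ctsd*, which encodes the lysosomal protease cathepsin D, the 4 lists lay within 25570 to 28376 bp. The other 6 of the 10 widest lay over or near *Septin9*, *Zfp710*, *Syne3*, *Pias4*, *Mapkapk2* and *Tpst2*, with widest peaks of 7978 to 31076 bp across the lists.

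Progenitor markers were acetylated, and markers of other cells mostly were not. Of 9 progenitor genes, 8 had an H3K27ac peak over a start in every list, with *Lhx2* the exception, and *Kit*, *Cd34*, *Myb*, *Lyl1* and *Tal1* had a start inside a broad domain. None of 7 B cell, 9 T cell, 8 erythroid or 12 non-blood markers started in a broad domain. Peaks below 5 kb lay over 1 or 2 of the B cell markers (*Cd79b*, and *Cd79a* in 1 list), 2 or 3 T cell markers, at most 1 erythroid marker and 3 non-blood markers, depending on the list.

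Broad domains often held gene starts. The 5′ end of a protein-coding gene lay in 1210 domains (37.0%, interval 35.3 to 38.6), against 11.3% (11.0 to 11.6) of 53385 narrower regions present in all 4 lists. With any coding transcript start counted, the shares were 50.3% and 16.4%. A longer region has more room for a start, and the narrower regions had a median width of 1383 bp. Of the domains without a coding start, 1196 were centred inside a gene and 430 outside genes. In 286 domains 2 or more genes started.

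Regulators of blood cells were among the genes concerned. Over all 21584 protein-coding genes, 1905 (8.83%) had a transcript start in a broad domain. For blood transcription factors this was 19 of 40, for immediate early genes and MAPK phosphatases 12 of 26, for receptors of growth factors and homing signals 13 of 30, and for the AP-1 family 7 of 19. It was 8 of 23 stress response genes, 6 of 20 neutrophil granule protein genes and 12 of 50 inflammatory genes. Well-known LPS response genes such as *Il6*, *Il1b*, *Cxcl10* and *Ptgs2* were not among the 12. The lists were drawn up with earlier results of these data known, and no test was made of these counts.

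Among blood transcription factors, 13 of the 19 were in domains broad in all 4 lists. At *Etv6*, which encodes an ETS repressor needed for stem cell survival, the widest peak measured 16246 bp in untreated p42, 16070 bp in LPS p42, 9729 bp in untreated p30 and 16430 bp in LPS p30 cells. The bases covered were 16065 to 16430 bp in every list, so that only the cutting into peaks differed. At *Spi1*, which encodes the myeloid master regulator PU.1, the values were 13466, 13280, 13007 and 15661 bp, a narrow range. At *Zeb2*, a zinc finger repressor, they were 9117, 13857, 5975 and 9126 bp, wider with LPS in both lines. Covered bases at *Zeb2* were 13517, 13857, 10308 and 13236 bp, so that in p42 cells mainly the cutting into peaks differed. At *Ikzf1*, which encodes Ikaros, the widest peak lay between 8095 and 8833 bp in 3 lists and reached 13609 bp in LPS p30 cells. The bases covered were 12588 to 13609 bp in every list, so that mainly the cutting into peaks differed. *Cebpa* itself, outside the naming rule, lay in a domain of 12827 bp with widest peaks of 6744, 8211, 6971 and 12431 bp, and with 12003 to 12466 bp covered in every list. Reads from the transduced *CEBPA* sequence cannot be told apart there.

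Receptor genes followed. At *Kit*, the stem cell factor receptor (chr5:75735023-75762092), acetylation covered 24104 to 26655 bp in every list, with widest peaks of 9866 bp in untreated p42, 8596 bp in LPS p42, 15571 bp in untreated p30 and 11446 bp in LPS p30 cells. At *Cd34*, a sialomucin of progenitors, they were 6387, 9603, 12673 and 11126 bp, with both p30 values above both p42 values. Covered bases at *Cd34* differed less, at 10637, 10946, 12673 and 12320 bp, by 4, 3, 1 and 2 peaks. The widest peak ranged over 5945 to 8753 bp at *Il6ra* and 6506 to 8004 bp at *Il4ra*, both receptors for interleukins.

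Several AP-1 and immediate early genes held domains that varied little between lists. *Jund*, which encodes an AP-1 subunit, had a widest peak of 7033, 7010, 7189 and 7250 bp in the same order, 1 peak in each list. *Mafg*, a small MAF protein gene, ranged over 10228 to 10873 bp and *Mcl1*, an antiapoptotic gene, over 8342 to 8861 bp. *Junb* stood at 8221, 8333, 12554 and 8640 bp, with untreated p30 cells apart from the rest. Its covered bases were 12141 to 12770 bp in every list, so that mainly the cutting into peaks differed. *Fosl2* measured 7124 bp in untreated p42 cells and 5569 to 6313 bp in the other lists. *Zfp36*, whose product speeds the decay of inflammatory mRNAs, ranged over 13848 to 16740 bp. *Ier2*, an immediate early gene, stood at 7677 and 7409 bp in the p42 lists, below 11808 and 11833 bp in the p30 lists. Its covered bases were 11143 to 11833 bp in every list, held by 2 peaks in each p42 list and 1 in each p30 list. *Dusp1*, a phosphatase gene for MAP kinases, had 9996, 9976 and 9566 bp in the first 3 lists, with LPS-treated p30 cells apart at 5004 bp. Covered bases at *Dusp1* were 9321 to 9996 bp, so that there, too, mainly the cutting into peaks differed. *Dusp4*, of the same family and picked after its values were seen, had 8599 bp with LPS over 6531 bp in p42 and 8802 bp over 6485 bp in p30 cells, under 1.5-fold in each line. Other members, also picked after the fact, differed more, with 8064, 4441, 14258 and 4991 bp at *Dusp2* and 3091, 3094, 3423 and 10335 bp at the small MAF gene *Maff*. Covered bases ranged over 12740 to 14258 bp at *Dusp2* and 7546 to 10335 bp at *Maff*. Of the stress genes, *Sqstm1*, an autophagy receptor gene, ranged over 14822 to 17718 bp, *Ddit3* over 7013 to 8381 bp and *Atf5* over 7596 to 7776 bp.

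Among the granule protein genes, *Srgn*, the serglycin core protein gene, ranged over 8537 to 9849 bp. At *Mpo*, myeloperoxidase (chr11:87678079-87696258), a peak of 18161 bp in untreated p42 cells stood against 11856 bp with LPS and 10438 and 10471 bp in p30 cells. The bases covered at *Mpo* were 18161, 17664, 16607 and 16753 bp, by 1, 2, 5 and 3 peaks, so that cutting into peaks made most of the difference. At *Elane* and *Prtn3*, neutrophil elastase and proteinase 3, which share a domain (chr10:79706899-79723180), p42 cells had a widest peak of 16282 bp that was down to 6743 bp after LPS, and p30 cells went from 12723 to 6499 bp. Both lines were thus narrower there with LPS. Covered bases barely moved, at 16282 and 15329 bp for p42 or 14427 and 14416 bp for p30, and the p42 domain went from 1 peak to 4.

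Several myeloid genes outside the naming rule, chosen after their values were seen, were broad in p42 cells alone. At *Hp*, haptoglobin, the p42 lists gave 7163 and 8118 bp, the p30 lists 2084 and 1498 bp, with 4426 and 4576 bp covered in p30 against 7348 and 8118 bp in p42. *Csf2rb*, the common beta chain of the GM-CSF and interleukin receptors, had 8163 and 7632 bp against 3638 and 3672 bp, although 6718 and 7264 bp were still covered in p30 cells, by 4 peaks in each list. *Cxcr2*, a neutrophil chemokine receptor, had 8441 and 6237 bp against 4808 and 4780 bp, with 11456 and 11500 bp covered in p42 and 10086 and 10092 bp in p30 cells, so that cutting into peaks made most of the difference. *Cd14*, the LPS coreceptor, had 11698 and 8796 bp against 2777 and 3261 bp, and 12547 and 13070 bp covered against 5009 and 6349 bp. *Cebpe*, a factor of granulocyte maturation, had 5278 and 6045 bp against 4067 and 2861 bp, and 6423 and 6396 bp covered against 5196 and 4984 bp. In each of these 5, both p42 widths lay above both p30 widths, which is how they were chosen. Over all coding genes, 299 had a transcript start in a domain broad in p42 lists only and 410 in one broad in p30 lists only. Over the lists these counts were 2 (*Hp* and *Ms4a3*) and 0 for granule proteins, 3 and 3 for receptors, 3 and 1 for transcription factors, 1 and 2 for inflammatory genes, 0 and 2 for the AP-1 family, and 1 and 0 each for immediate early and stress genes. The 3 receptor genes broad in p30 cells alone were *Itgb2*, *Csf1r* and *Ptprc*. At *Itgb2* the p42 widths were 3315 and 4966 bp against 5910 and 5775 bp in p30 cells. Covered bases there were 5441 and 5371 bp against 5910 and 5775 bp.

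**Figure D2:**
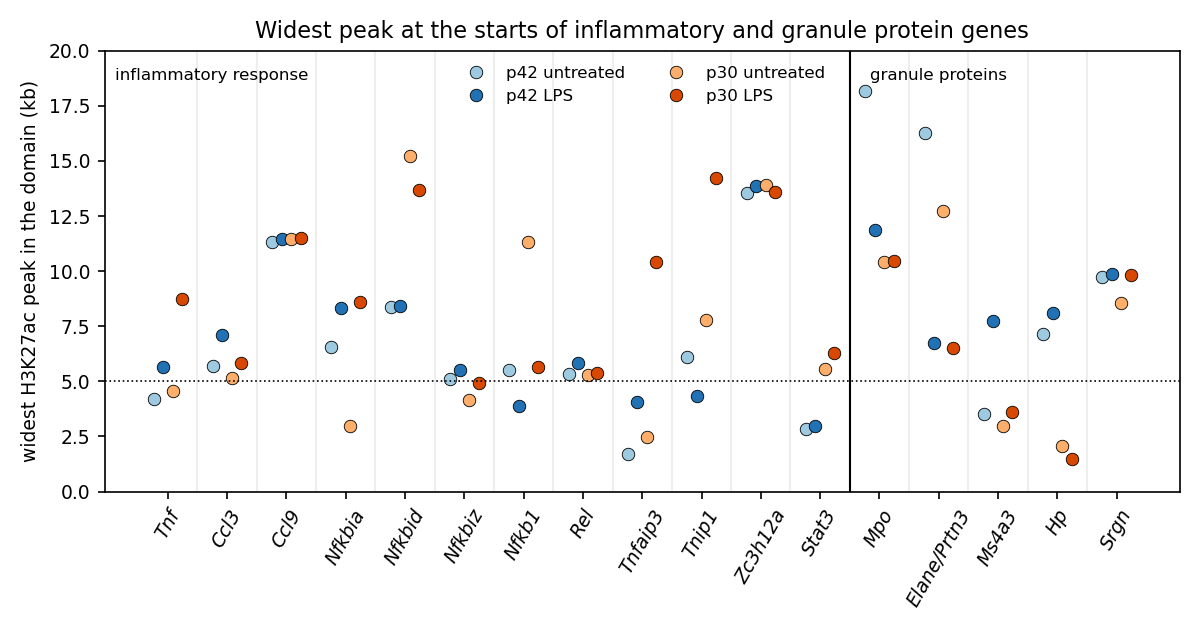
Width in kb of the widest H3K27ac peak in each domain holding a start of an inflammatory (left) or granule protein gene (right), 1 point per pooled list; the dotted line is 5 kb. *Tnfaip3* was at least 1.5-fold wider with LPS in both lines. *Tnf*, *Nfkbia* and *Tnip1* were so in p30 cells only, where their covered bases rose by less than 1.5-fold. The widest *Mpo* peak was in untreated p42 cells, although 16607 to 18161 bp were covered in every list.

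Of the 12 inflammatory genes, 1 lay in a domain at least 1.5-fold wider with LPS in p42 cells and none in a narrower one. In p30 cells 4 were wider and 1 was narrower. By sign alone the change was above 0 for 10 genes in p42 and 9 in p30 cells, some by very little, against 30.5% and 53.3% of all domains. The median log2 change was 0.08 in p42 and 0.18 in p30 cells, against -0.12 and 0.01 over all domains. The width rule chose these domains, so nothing is read from these tallies. At *Tnf*, broad in LPS lists only, the rule set the sign in both lines, and at *Tnfaip3* in p30 cells. *Tnfaip3*, which encodes the A20 brake on NF-kB (chr10:18883229-18893651), went from 1703 to 4065 bp (p42) and from 2475 to 10423 bp (p30). There more bases were covered as well, from 4763 to 8730 bp and from 3803 to 10423 bp. *Nfkbia*, the inhibitor of NF-kB, went from 6580 to 8331 bp and from 2960 to 8620 bp, at least 1.5-fold in p30 cells only. *Tnf* (chr17:35416967-35425687) went from 4181 to 5652 bp (p42) and from 4540 to 8721 bp (p30), by width likewise. *Tnip1*, whose product binds A20, went from 6099 to 4348 bp (p42) and from 7767 to 14233 bp (p30). By covered bases *Tnf* went from 5138 to 7710 bp and from 6200 to 8721 bp. *Nfkbia* went from 7558 to 8331 bp and from 6063 to 8620 bp covered. *Tnip1* rose in both, from 11401 to 12666 bp and from 13145 to 14233 bp. The 1.5-fold gain in p30 cells only was thus not seen by covered bases at *Tnf* or *Nfkbia*. Like *Tnfaip3*, these genes lay outside the naming rule and were picked after their values were seen. A gene with several domains was counted by its widest, which for *Nfkb1*, an NF-kB subunit gene, lay at an inner transcript start and went from 5513 to 3878 bp and from 11336 to 5633 bp. The domain at the 5′ end of *Nfkb1* went from 2017 to 3332 bp and from 2186 to 6857 bp, the other way. By the naming rule, *Nfkbid*, an NF-kB regulator, had a widest peak of 8382 and 8433 bp in the p42 lists, less than 15235 and 13667 bp in the p30 lists. Its covered bases were 14627 and 13690 bp against 15235 and 15069 bp, so that cutting into peaks made most of the difference. The chemokine gene *Ccl3* stood at 5694, 7095, 5149 and 5839 bp in the usual order, and *Rel* at 5305 to 5850 bp over the lists. *Ccl9* and *Zc3h12a* stayed within 11328 to 11517 bp and 13544 to 13926 bp in all 4 lists.

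Upon LPS, the widest peak in a domain changed by a median of -0.12 on the log2 scale in p42 cells, close to -0.15 over the 67679 regions with a peak in both lists. In p30 cells the median was 0.01, against -0.01 over 84880 regions. A domain was called wider or narrower at 1.5-fold. In p42 cells 166 domains (5.07%) were wider and 682 (20.8%) narrower, beside 9.81% and 27.5% of all regions. In p30 cells 423 (12.9%) were wider and 410 (12.5%) narrower, beside 16.0% and 20.6%. All regions are much narrower, so that the same shift in bp is a larger ratio there, and the widths chose the domains. Nothing is read from the difference in these shares. Among the 2693 domains made broad by a p30 list, which the p42 widths did not choose, the p42 median was -0.10, with 4.61% wider and 17.9% narrower. Among the 2346 made broad by a p42 list, the p30 median was 0.01, with 10.1% wider and 10.6% narrower.

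**Figure D3:**
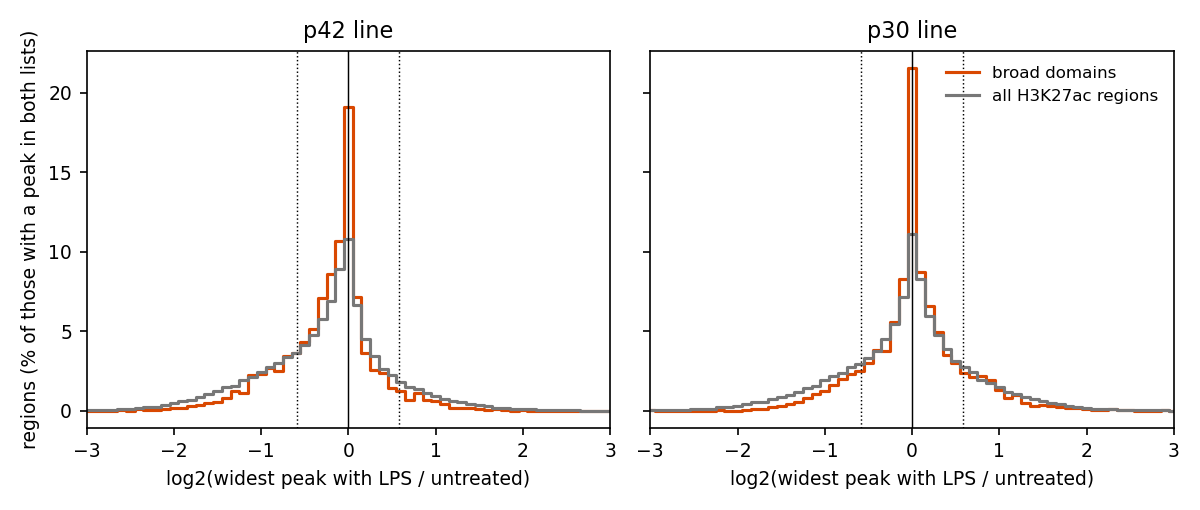
Distribution of the log2 ratio of the widest peak with LPS to that untreated, in bins of 0.1, for broad domains and for all H3K27ac regions with a peak in both lists. Dotted lines mark 1.5-fold. The p42 distribution leans to narrower peaks in both sets, and the p30 distribution is centred near 0.

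In p42 cells wide peaks were often broken into several, while most of their bases stayed covered. The mean number of peaks per domain rose from 2.07 to 2.61 with LPS in p42 cells and from 2.00 to 2.05 in p30 cells. Of 1299 domains that were a single broad peak in untreated p42 cells, 860 (66.2%) held 2 or more peaks with LPS, with a median of 93.8% of their bases still covered. The p30 values were 726 of 1318 (55.1%) and 97.1%. In the reverse direction, of 688 domains that were 1 broad peak with LPS in p42 cells, 283 (41.1%) held 2 or more untreated, as did 768 of 1391 (55.2%) in p30 cells. Of the domains called narrower, only 41 in p42 and 12 in p30 cells also lost 1.5-fold in bases covered. The share of domain bases under a peak was 91.3% and 86.9% in p42 and 92.4% and 93.5% in p30 cells. The part of the shorter p42 LPS list in this was not tested.

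In both lines 57 domains (1.74%) were wider with LPS, beside 2.58% of 56635 regions present in all lists, and 147 (4.49%) were narrower, beside 7.34%. The 57 were 34.3% of those wider in p42 and 13.5% of those wider in p30 cells. Opposite calls were made too, with 15 domains wider in p42 and narrower in p30 cells and 74 the other way round. The changes of the 2 lines correlated with a Spearman rho of 0.22 over 3274 domains, which share the lists' depth and are not independent.

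The bases covered rose at least 1.5-fold with LPS in both lines in 13 domains. Besides *Tnfaip3*, they lay at or near *Acod1*, which encodes the itaconate-making enzyme of activated macrophages, *Ly6e*, an interferon-induced gene, *Adora2a*, an adenosine receptor gene, *Pou2f2*, a lymphoid transcription factor gene, *Tmem176a*, *Ctu1*, *Fgd2*, *Vti1a* and *Tmco5*, at *Jade2* with 2 domains, and near *Mir146*. The domain 9835 bp from *Acod1* (chr14:103269248-103274578) went from 1859 to 5331 bp covered (p42) and from 751 to 2835 bp (p30). The domain in *Ly6e* went from 528 to 2541 bp and from 2479 to 5008 bp. The larger *Jade2* domain, an intronic stretch of 24330 bp, had 8884 bp covered in untreated and 17988 bp in LPS-treated p42 cells, against 15051 and 24330 bp for p30, and only LPS-treated p30 cells joined it into 1 peak. Fewer bases by 1.5-fold in both lines were found in 4 domains, near *Mvb12b*, *Sec61a1*, *Fyn* and *Stk24*.

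The largest changes were ranked among domains broad in at least 1 of the 2 lists compared. In p42 cells the largest increases named here lay near *Jarid2* (1670 to 5677 bp), in *Foxp1* (2353 to 7843 bp), near *Slamf7* (1609 to 5331 bp) and near *Acod1* (1666 to 5331 bp). Covered bases rose less there, from 4921 to 6278, 6557 to 7843, 3811 to 5331 and 1859 to 5331 bp in the same order. The p30 widths were 3736 to 6457 bp near *Jarid2*, 2247 to 3084 bp in *Foxp1*, 1672 to 5855 bp near *Slamf7* and 751 to 2228 bp near *Acod1*. Each went in the same direction, with *Foxp1* under 1.5-fold. In p30 cells the largest lay in *Jade2* (1235 to 10605 bp and, in its second domain, 4742 to 24330 bp), near *Fgd2* (889 to 6576 bp), in *Acsl5*, named for the start of *Vti1a* (2195 to 12132 bp), and in *Ly6e* (1000 to 5008 bp). Covered bases in p30 cells rose less, from 3029 to 10605, 15051 to 24330, 2440 to 6576, 7397 to 12132 and 2479 to 5008 bp. In p42 cells the widest peak of all 5 domains was also wider with LPS, by 0.67 to 1.30 on the log2 scale.

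In p42 cells the widest peak fell most, by the same ranking, over *Dyrk1b* (8547 to 1387 bp) and in *Prrc2b* (5590 to 947 bp). The latter is nearest to the start of *ENSMUSG00000144241*. The others lay in *Nin* (11416 to 2232 bp), *Dazap1* (5884 to 1154 bp) and *Sun2* (6371 to 1274 bp). Covered bases fell less, from the same untreated values to 5642, 2754, 8045, 2596 and 5320 bp in the same order. In p30 cells the widest peak went from 2052 to 3007 bp at *Dyrk1b* and from 2313 to 2315 bp in *Prrc2b* with LPS. It fell by 0.89, 1.15 and 0.17 on the log2 scale in *Nin*, *Dazap1* and *Sun2*. The largest falls in p30 cells lay in *Urb1* (6037 to 765 bp), in *Xpo5* near *Yipf3* (5153 to 1092 bp) and in *Vps13d* (5613 to 1539 bp). Next came the domain over *Bckdha* and *Exosc5* (9515 to 2729 bp) and that in *Zmiz1*, whose nearest listed start is *Ppif* (21025 to 6183 bp). Covered bases with LPS were 2830, 3053, 3018, 9746 and 19036 bp, against 6037, 5153, 5613, 12144 and 21025 bp untreated. The p42 changes of the widest peak there were -0.34, -1.74, -0.78, 0.31 and -0.02 on the log2 scale, in the same order. The *Mvb12b* domain, broad in untreated p30 cells alone and so outside the p42 ranking, went from 2098 to 241 bp (p42) and from 5087 to 2087 bp (p30). Of the domains narrower in p42 cells 21.6% were also narrower in p30 cells, and of those narrower in p30 cells 35.9% were also narrower in p42 cells. Being the extremes of 1 contrast, these values served to choose the genes and are given as a description.

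Untreated p30 and p42 cells differed in both directions. The widest peak was at least 1.5-fold wider in p30 cells in 595 domains (18.2%) and narrower in 536 (16.4%), beside 23.1% and 17.4% of 79227 regions. With LPS the counts were 905 (27.6%) and 299 (9.13%), beside 30.8% and 12.6% of 67183 regions. Among domains broad in 1 or both of the untreated lists, those most wider in p30 cells lay in *Gem* (388 bp in p42 and 5729 bp in p30), in *Egfl7*, an endothelial and stem cell gene overlapping *Gm20532* (1453 and 13530 bp), in *Srebf2*, named for *Shisa8* (907 and 7135 bp), in *Urb1* (894 and 6037 bp) and in *Mta3* (1702 and 11049 bp). Those most wider in untreated p42 cells lay near *Ppp2r3d* (5367 bp in p42 and 354 bp in p30), in *Emilin2* (5170 and 344 bp), in *Gm28845* (5510 and 436 bp), in *Krr1* (6362 and 560 bp) and near *Rpl37* (5584 and 495 bp). In the line with the narrower peak, H3K27ac covered 972, 4730, 3934, 2750 and 6902 bp (p42) in the first 5. It covered 354, 899, 1347, 2582 and 720 bp (p30) in the last 5. The H3K4me1 lists did not choose these 10 domains. Over all domains H3K4me1 covered 53.5% of bases in p42 and 60.8% in p30 cells, so that a higher p30 share was general. In these 10 the covered share was higher on the side of the wider H3K27ac peak in 7. It was 40.4% in p42 and 91.0% in p30 cells at *Gem*, 15.6% and 51.0% at *Egfl7*, and 67.7% and 86.6% in *Mta3*. It was 95.6% and 91.7% in *Emilin2*, 83.0% and 28.9% in *Gm28845*, 55.1% and 3.46% in *Krr1*, and 31.0% and 8.56% near *Rpl37*. In *Srebf2* it was 9.98% and 8.63%, higher on the other side, and the *Urb1* and *Ppp2r3d* domains had no H3K4me1 peak in either line.

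CEBPA sites were unequally shared between domains broad in one line only. Of the 581 domains broad in p42 lists only, 65.2% (interval 61.3 to 69.0) held an anti-CEBPA summit of p42 cells, against 23.5% (20.9 to 26.3) of the 928 broad in p30 lists only. The same order was seen with the sites of p30 cells, 55.6% (51.5 to 59.6) against 24.4% (21.7 to 27.2), and with the anti-ER antibody in both lines, 70.1% against 26.6% in p42 and 76.1% against 46.4% in p30 cells. The intervals did not overlap in any of the 4 lists. Both kinds had a mean length close to 6.3 kb (6322 and 6371 bp). Per kb there were 0.140 and 0.0416 anti-CEBPA summits of p42 cells, and 0.113 and 0.0423 of p30 cells. The domains broad in all 4 lists held 0.0864 and 0.0810 per kb. With the same number of widest peaks from each list, the shares were 64.7% and 25.2% for p42 and 56.9% and 28.1% for p30 anti-CEBPA summits.

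**Figure D4:**
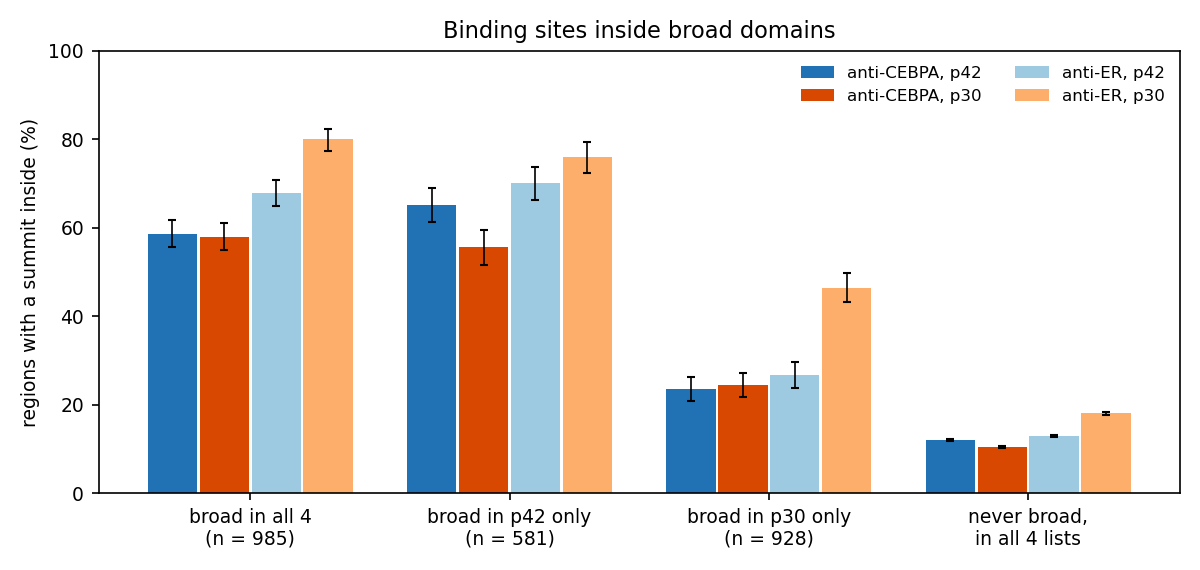
Share of regions with at least 1 summit inside, for the 4 CEBPA lists, in domains broad in all 4 H3K27ac lists, in p42 lists only and in p30 lists only, and in regions in all 4 lists that were never broad; bars show Wilson 95% intervals (counting error only). Domains broad in p30 lists only stood at 23.5% to 46.4%, below the other domains with each antibody.

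H3K4me1 was unequal between the same classes. In domains broad in p42 lists only, H3K4me1 peaks covered 55.0% of bases in p42 and 53.4% in p30 cells, a p30 to p42 ratio of 0.972. In domains broad in p30 lists only they covered 48.0% and 61.8%, a ratio of 1.29. Over all domains the ratio was 1.14, with 53.5% and 60.8% covered, the p30 list being the longer one with 168028 against 134650 peaks.

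Over all domains, an anti-CEBPA summit lay in 1541 (47.1%, interval 45.4 to 48.8) in p42 and in 1472 (45.0%, 43.3 to 46.7) in p30 cells. With anti-ER these were 1740 (53.1%) and 2184 (66.7%), so that the line with more differed between antibodies. In 1188 domains (36.3%) both antibodies placed a summit in both lines, and 975 (29.8%) had none in any of the 4 lists. Narrower regions held an anti-CEBPA summit in 12.0% and 10.4%. A longer region has more room for a summit, so the density is given too. It was 0.0829 per kb in p42 and 0.0753 in p30 cells, against 0.0746 and 0.0636 in narrower regions. Among regions with a coding start the densities were 0.0748 against 0.0597 in p42 and 0.0702 against 0.0588 in p30 cells, and among those without a start 0.0920 against 0.0795 and 0.0810 against 0.0652. Only 4.49% of all p42 and 6.08% of all p30 anti-CEBPA sites lay in broad domains.

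Summits kept away from the ends of the domains. Of the p42 anti-CEBPA summits 42.7%, and of the p30 ones 43.9%, lay in the middle stretch that makes up 33.3% of the length. The outer 20% on each side, 40% of the length in all, held 27.6% and 25.6%. The anti-ER lists gave 42.8% and 43.3% in the middle. In untreated p42 cells 96.3% of the p42 summits lay under an H3K27ac peak, where 91.3% of the bases did.

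**Figure D5:**
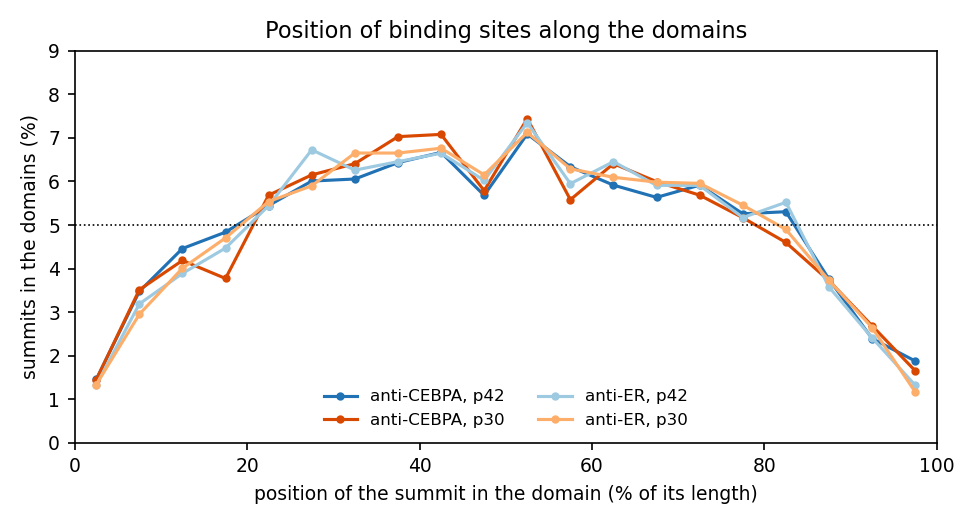
Position of CEBPA summits along the domains, as the share of all summits in each 5% of the domain's length; the dotted line is an even spread of 5%. The end bins held 1.17% to 1.88% of summits over the 4 lists, and the highest bin, just past the middle, held 7.09% to 7.44%.

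With the p42 and p30 summits added, the most anti-CEBPA summits lay in 5 long domains. In the p30 list alone the most, 6, lay in the domain near *Plekho2*, which held 1 in p42 cells. A domain of 24603 bp in *Tbc1d2b* (chr9:90112651-90137253) held 7 in p42 and 4 in p30 cells. The *Mapkapk2* domain, over the gene for a kinase downstream of p38 (chr1:130998060-131026252), held 6 and 4. The domain nearest to *Frmd8* held 5 and 5, and an intronic domain of *Fli1*, an ETS factor gene (chr9:32410476-32434616), held 5 and 4. The domain 14199 bp from *Ccr1* (chr9:123735381-123754535) held 4 and 4. It was broad in p42 cells only, at 19107 bp untreated and 9131 bp with LPS, against 4114 and 4100 bp in p30 cells, where 7 and 8 peaks still covered 16690 and 16788 bp. H3K4me1 covered 94.5% and 94.6% of it in the 2 lines. The other 4 domains were broad in all lists.

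Width changes with LPS went with smaller differences in CEBPA content. Domains wider in p42 cells held an anti-CEBPA summit of p42 cells in 51.8% (interval 44.3 to 59.3), and those narrower in 43.0% (39.3 to 46.7). In p30 cells, summits of the p30 list were in 39.95% (35.4 to 44.7) of the wider and 43.7% (38.9 to 48.5) of the narrower domains. These intervals overlap. A gene 5′ end lay in 36.9% of the domains wider and in 22.4% of those narrower in p30 cells, and in 33.7% and 30.5% in p42 cells.

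H3K4me1 was nearly always present. At least 1 H3K4me1 peak lay in 97.9% of the domains in p42 and in 98.4% in p30 cells, against 62.1% and 66.9% of narrower regions. It covered less of the domains with a coding start, 45.5% and 52.1% of bases, than of those without, 62.6% and 70.7%. H3K4me1 itself ran on for 5 kb or more in only 242 domains in p42 and 480 in p30 cells.

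The sequence of the domains was close to that of other acetylated regions. GC content was 49.0% against 48.4% in narrower regions. Domains with a coding start had a CpG ratio (observed over expected) of 0.344, against 0.513 in narrower regions with a start, and those without a start had 0.216 against 0.223. Motifs were counted on both strands as exact letters. CEBP (TTGCNNAA) was found 0.409 times per kb against 0.421 in narrower regions, and the AP-1 element TGANTCA, the site of FOS and JUN dimers, 0.308 times against 0.326. For PU.1, searched as AGGAAGT, the densities were 0.346 in the domains and 0.390 in narrower regions. Those of RUNX factors, searched as TGTGGTT, were 0.269 and 0.273, and the GATA element AGATAAG, bound by the erythroid and progenitor GATA factors, gave 0.132 and 0.133. The composite CEBP:ATF4 element (TGATGCAA), which overlaps the CEBP letters, was found 0.0237 times against 0.0261. None of the 6 was denser in the domains as a whole. Among regions with a coding start 4 were denser in the domains, AP-1 at 0.280 against 0.244, PU.1 at 0.331 against 0.280, RUNX at 0.252 against 0.208 and GATA at 0.121 against 0.110. Of the p42 anti-CEBPA summits in domains 46.8% had a CEBP match within 100 bp, as did 47.5% in narrower regions and 50.6% of all p42 sites. At least 1 CEBP match lay in 92.6% of domains and in 45.4% of the shorter narrower regions, and for the other 5 motifs these shares ran from 16.5% to 90.0% and from 4.29% to 44.6%.

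Of 2195 annotated microRNA genes, 104 lay in 87 broad domains, and 70 of these matched the RefSeq sequence table. Those for 4 known in blood cells, and for 1 next to a domain that grew with LPS, were picked after their values were seen. The mature sequences (RefSeq, GRCm38.p6) are shown with the seed, bases 2 to 8, in capitals, since the seed sets which mRNAs they pair with.
miR-223-3p: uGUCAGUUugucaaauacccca
miR-142a-3p: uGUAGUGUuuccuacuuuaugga
miR-21a-5p: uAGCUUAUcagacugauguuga
miR-126a-3p: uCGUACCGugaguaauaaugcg
miR-146a-5p: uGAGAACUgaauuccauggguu

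The 5 seeds differ. *Mir223*, a granulocyte microRNA gene, lay in a domain with widest peaks of 9682 bp in untreated p42, 4833 bp in LPS p42, 4755 bp in untreated p30 and 5440 bp in LPS p30 cells, widest in untreated p42 cells. Its covered bases were 9682, 9148, 7577 and 7585 bp in the same order. *Mir142*, a microRNA gene active throughout blood, had 13074, 13967, 12492 and 18666 bp, and *Mir21a* 21356, 24256, 21650 and 24250 bp, broad in every list. *Mir126a*, a microRNA gene of stem cells and endothelium inside *Egfl7*, had 1453, 1070, 13530 and 6834 bp, with both p30 values above both p42 values and no CEBPA summit of either antibody inside. *Mir146*, which is known to be induced through NF-kB and to dampen its signaling, lay 4703 bp outside a domain whose covered bases went from 1676 to 4393 bp (p42) and from 2276 to 8475 bp (p30) with LPS (chr11:43269991-43278465). MicroRNA levels were not measured here.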

How the data were processed

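ChIP-seq of 40 samples was deposited, of which the H3K27ac, H3K4me1, anti-CEBPA and anti-ER samples of HPC-7 cells were used, through 10 peak lists. Per the study's methods, the authors trimmed reads with Trim Galore, aligned them to mm39 with Bowtie2, excluded duplicates marked by Picard and called narrow peaks with MACS2 against input, on pooled replicates for the histone marks. Chromatin was sonicated for H3K27ac and digested with micrococcal nuclease for H3K4me1, and names of the anti-CEBPA lists do not mark the model-free calling that all the rest mark, which may reflect another setting. The deposited lists give start, end and summit, a fold enrichment (ratio over background) and a −log10 q-value. The ratio and the −log10 values deposited by the authors were used to rank or filter peaks within a list. The ratio is also given as a description at the summits shown and near the width threshold, without a common scale between lists. The ATF4 list of human cells was not used.

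Width was end minus start. Peaks on chromosomes 1 to 19 and X were kept. In each domain the widest peak, the number of peaks and the covered bases were taken per list. A peak of another list may reach beyond the domain, so its width can exceed the covered bases. Gene starts came from GENCODE annotation on GRCm39, the build of the files. Sites were counted by summit. No test was possible with 1 list per group. Precision is limited to Wilson 95% intervals, and depth is unknown.

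The members and gene lists were chosen with earlier results of these data known. Named were the 10 widest domains, the 5 largest increases and 5 largest decreases with LPS per line and between untreated lines (at least 1 list broad), the 5 domains with most anti-CEBPA summits, and up to 4 genes per list starting in a domain broad in all 4 lists. Domains without a gene start took the nearest one. Of the items this rule picked, 1 domain and 2 sequences with a motif match are not reported here. Other genes, among them *Cebpa*, *Tnfaip3*, *Nfkbia*, *Tnf* and *Tnip1*, lay outside this rule and were picked after their values were seen. Functions were tested on simulated data. Python 3.11.15, numpy 2.4.6, pandas 2.3.3, scipy 1.17.1, pysam 0.24.0 and matplotlib 3.10.9 were used. Alternatives were other widths, q-values under 1e-05, other folds, start and overlap rules, anti-ER, and equal numbers of peaks.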

Additional observations from a re-analysis of the deposited data

Results flagged for a closer look

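The response to LPS had opposite signs in the 2 lines on 2 measures. The number of domains that were broad fell by 589 in p42 cells and was higher by 21 in p30 cells. With the same number of widest peaks taken from each list, the counts were 1567 untreated and 1532 with LPS in p42 cells, and 1566 and 1574 in p30 cells. Equal numbers bring these counts close in advance, so nothing is read from their likeness. The median log2 change of the widest peak was -0.12 in p42 and 0.0075 in p30 cells. This contrast of lines had no test, since each group has 1 pooled list. The p42 LPS list was also the shortest of the 4, with 107114 peaks against 129345 to 142385 in the others, and over all H3K27ac regions the medians were -0.15 and -0.01. The part of list depth in the difference was not tested.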

How the results depend on the processing

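No paired analysis was possible because each list was called on pooled replicates, and for the same reason no replicate could be left out. Another width moved the number of domains from 3274 to 5366 at 4000 bp, 1133 at 7500 bp and 6547 when peaks within 500 bp were stitched first. The median p42 change with LPS was -0.066 by covered bases. Domains wider with LPS numbered 322 with a limit 25% above equal width and 49 at 2-fold for p42, 716 and 151 for p30. Narrower ones numbered 1110 and 295 for p42, 687 and 131 for p30. The share with a gene start was 50.3% with any coding transcript start and 42.03% within 2500 bp. The share with an anti-CEBPA site was 44.4% in p42 and 41.2% in p30 cells at q-values under 1e-05, 37.7% in p42 cells with the same number of sites as in p30, and 53.1% and 66.7% with anti-ER. Sites per kb were 0.100 and 0.140 with anti-ER, and 0.0607 in p42 cells with the same number of sites, below the 0.0753 of p30 cells, so that the order of the lines turned, as it did for the share (37.7% against 45.0%). The excess of p42 sites per kb over narrower regions, 0.0082, was 0.0151 with and 0.0125 without a coding start, a split added after the data were seen. Of 56 alternatives, 29 stayed within the limits set for a move, and no median change or excess changed sign, although the order of the lines turned as given. With the same number of widest peaks from each list, domains broad in 1 line only numbered 624 (p42) and 622 (p30), in place of 581 and 928. Equal numbers bring the first 2 counts close in advance. Causes were not tested. Unknown depth limits any comparison of widths between lists.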

Other observations

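Domains were unevenly spread over chromosomes. Chromosome 17 held 8.34% of the domains and 5.61% of all merged H3K27ac regions, chromosome 7 held 7.21% and 5.77%, and chromosome 12 held 3.05% and 4.28%. Chromosome X held 31 domains, 0.947% against 1.12% of regions.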
